A study of Rattus norvegicus with 35 samples.

Results

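Cytosolic ribosomal protein genes were followed in bulk RNA sequencing of the hippocampus of female Sprague Dawley rats. The members were chosen by name alone, as every gene of the count table named Rpl or Rps with a number, together with Rplp0, Rplp1, Rplp2 and Rpsa, without the S6 kinases (Rps6k) and without names that carry -ps. The rule found 77 of 15059 genes, and 76 of them passed the filter on low counts. Rplp2, Rps6 and Rps27a were not analysed here. All rats were 6 months old at surgery. The animals labelled SHAM had a sham operation and kept their ovaries, while all other groups were ovariectomised (OVX), which removes the main source of circulating estrogen. After a washout of 2 weeks the OVX groups were given vehicle or were injected into the peritoneum once a day with estradiol at 0.16 mg/kg, tamoxifen at 3.23 mg/kg, raloxifene at 9.68 mg/kg, exemestane at 0.16 mg/kg or anastrozole at 4.03 mg/kg, and tissue was taken 7 days after treatment began. Estradiol is the natural hormone, tamoxifen and raloxifene are selective estrogen receptor modulators, and exemestane and anastrozole inhibit aromatase, the enzyme that makes estrogens from androgens. Each of the 7 groups held 5 libraries. Whether SHAM animals were injected is not said in the labels, so surgery and injection cannot be told apart in that group.

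The cytosolic ribosome is built of a large and a small subunit, and its proteins carry the prefixes Rpl and Rps. The subunits are assembled from ribosomal RNA and these proteins in the nucleolus and joined on an mRNA in the cytoplasm. Most ribosomal protein mRNAs begin with a C followed by a run of pyrimidines, the 5′ terminal oligopyrimidine (TOP) motif, through which mTORC1 signalling and the RNA-binding protein Larp1 set how strongly they are translated. In neurons ribosomes also stand in dendrites and axons, where local protein synthesis takes part in synaptic plasticity.

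The start windows of 10 members that the results turn on are shown because the TOP motif is the feature these genes are best known to share. Each line gives 15 bases before and 15 bases from the annotated start of the RefSeq gene in build GRCr8, read 5′ to 3′ on the gene's strand. Capitals mark a C at the start together with the unbroken run of C and T that follows it, where at least 4 of them follow. The first 5 windows hold such a run and the others do not.
Rpl10a, chr20:6390518-6390547, plus strand: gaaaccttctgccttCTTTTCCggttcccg
Rps15, chr7:10068101-10068130, minus strand: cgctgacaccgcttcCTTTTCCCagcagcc
Rpl28, chr1:78083518-78083547, minus strand: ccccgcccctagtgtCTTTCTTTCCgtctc
Rps27, chr2:177964592-177964621, minus strand: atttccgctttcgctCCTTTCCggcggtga
Rps3a, chr2:173827028-173827057, minus strand: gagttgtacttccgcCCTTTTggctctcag
Rps24, chr16:96502-96531, plus strand: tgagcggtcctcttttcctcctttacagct
Rpl29, chr8:115947628-115947657, plus strand: gggcctttctctttctcttccggtcccagg
Rpl41, chr7:1563483-1563512, minus strand: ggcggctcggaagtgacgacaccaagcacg
Rpl22l1, chr2:113683181-113683210, plus strand: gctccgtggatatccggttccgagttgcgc
Rps3, chr1:163195762-163195791, minus strand: ttcctttcagcggcgcgcggcagcaagatg
The motif was searched on the gene's strand only, at the annotated start. It was found in 22 of the 59 members with 1 promoter entry (37.3%) and in 881 of 33469 promoters of all genes (2.63%). Among genes of the count table with 1 promoter entry it was found in 277 of 10042 (2.76%). Within 10 bases of the annotated start it was found in 42 of the 59 (71.2%). The share there was 28.9% of all promoters and 28.2% of the 10042. Annotated starts may lie some bases from the used ones, so a window without capitals says only that these letters are not at that position.

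Ribosomal protein transcripts made up 0.612% to 0.735% of the assigned counts of a library, with a median of 0.684%. The smallest library held 5.58 M assigned counts, the median one 8.01 M and the biggest 12.1 M. Levels are given as CPM, the counts of a gene per M counts of its library after scaling for composition, and since no transcript lengths were at hand they are compared between libraries and not between genes. Of the 76 tested members, 28 had a mean of at least 100 CPM, 42 lay between 10 and 100 CPM and 6 were below 10 CPM. The highest library was less than 1.5 times the lowest in 35 of the 76. Among the 55 members at 50 CPM or more, the median biological coefficient of variation within groups was 0.0782, against 0.0908 for the 3933 genes at that level. Rps4y2, a second copy of the small-subunit gene Rps4x, was the only member the filter removed. It ranged from 0 to 1.64 CPM and was at 0 in 1 library. In bulk tissue, fewer cells of a type and less RNA per cell cannot be told apart.

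A property found in no label parted the libraries in 2 classes. The authors' normalized table equals the counts divided by a factor for each gene and library, and over 14252 genes that are not members the first component of these factors held 72.3% of their variance, against 1.69% for the second. By its sign 20 libraries are called class A and 15 class B. Raloxifene lies wholly in class B, with its 5 libraries, as do exemestane 1 to 4, tamoxifen 3 to 5, anastrozole 3 and 4, and vehicle 4. SHAM and estradiol lie wholly in class A. Mitochondrially encoded mRNAs took between 3.85% and 5.83% of a class A library and between 5.29% and 7% of a class B library. For the signal recognition particle RNA Rn7sl1 the ranges were 4.47% to 6.49% and 2.9% to 3.84%. These classes come from the data, and their source was not tested. Because raloxifene has class B libraries only, its values are given below from the fit with the groups alone and from a fit with group and class together, in which the class difference comes from the 4 groups that hold both classes.

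**Figure D1:**
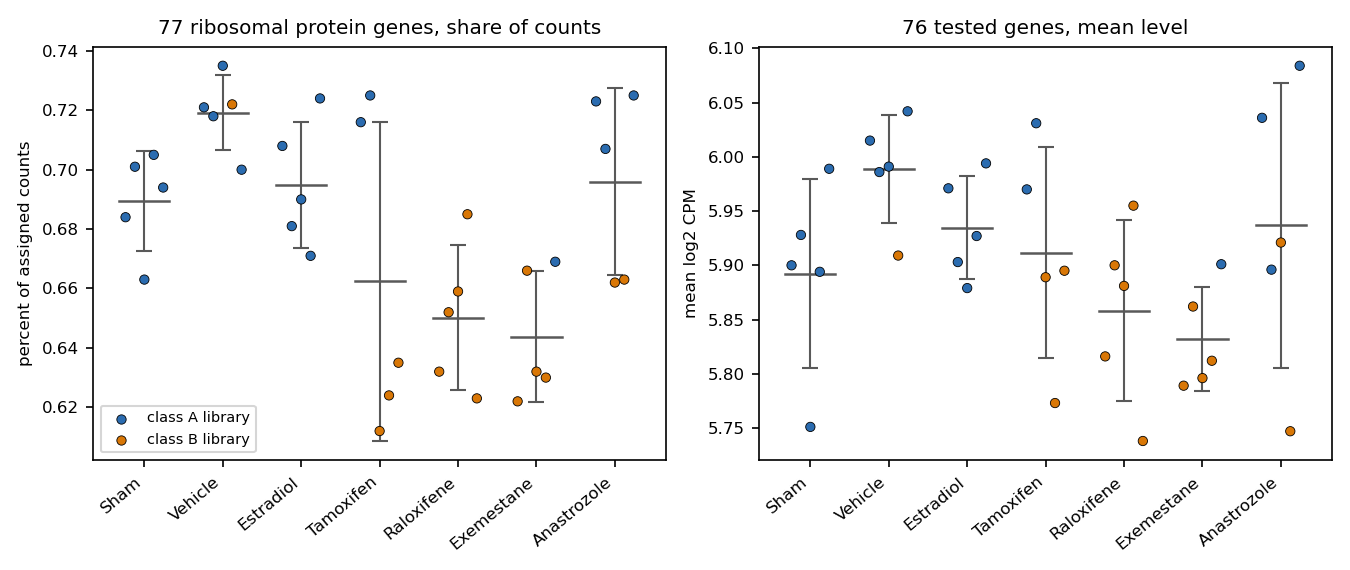
Share of assigned counts taken by the 77 ribosomal protein genes (left, percent) and mean log2 CPM of the 76 tested genes (right) in each library, by group; blue points are class A and orange points class B libraries, and lines are the group mean ± SD (n = 5). The vehicle libraries lie between 0.7% and 0.735%, the raloxifene libraries between 0.623% and 0.685% and the exemestane libraries between 0.622% and 0.669%.

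The share of counts taken by the members was highest in vehicle, with a mean of 0.719% ± 0.0123 (SD, n = 5), and lowest in exemestane, with 0.644% ± 0.0218. All 5 raloxifene and all 5 exemestane libraries lay below the lowest vehicle library, which had 0.7%. The group means of SHAM, 0.69% ± 0.0169, of estradiol, 0.695% ± 0.0215, of anastrozole, 0.696% ± 0.0316, and of tamoxifen, 0.662% ± 0.0536, lay between them. Tamoxifen had the largest spread, and its class A libraries had 0.716% and 0.725% while its class B libraries had 0.612% to 0.635%. Over all libraries the share was 0.703% ± 0.0212 (n = 20) in class A and 0.648% ± 0.0291 (n = 15) in class B, and the ranges overlapped: class B reached 0.722% in vehicle 4 and 0.685% in raloxifene 4, while class A went down to 0.663%.

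Raloxifene had the most members that differed from vehicle. As designed, with the groups alone, 22 of 76 members passed an adjusted p of 0.05 in edgeR's quasi-likelihood test, 3 higher and 19 lower, where 24.8% of all 14411 tested genes passed (13.4% higher and 11.4% lower). The share of members called was thus near that of all genes, with more of it on the lower side. The median log2 fold change of the members was -0.11, against -0.02 for all genes. Without Rpl7l1 and Rps19bp1, which match the rule by name only, the 19 that fell held 11 of the 44 large-subunit and 8 of the 30 small-subunit genes. With class in the model none of the 76 members passed, where 0.00694% of all genes passed, and the median of the members was then -0.01.

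Among those that fell, Rpl10a forms the mobile L1 stalk of the large subunit, from which spent tRNA leaves. Its vehicle libraries had 76.4, 72.3, 79.5, 58.7 and 74.9 CPM, and its raloxifene libraries had 44.6, 48.4, 52.9, 56.1 and 48.4 CPM. All raloxifene libraries were below all vehicle libraries, of which vehicle 4 was the lowest. The log2 fold change was -0.53 ± 0.13 (SE; adjusted p = 0.0115), and with class it was -0.10 ± 0.065 (adjusted p = 0.958).

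Rps29 is a small zinc-binding protein of the head of the small subunit. It had 173, 169, 174, 142 and 167 CPM in vehicle and 127, 129, 129, 129 and 128 CPM in raloxifene. The raloxifene libraries lay within 2 CPM of each other and below every vehicle library. The fold change was -0.36 ± 0.090 on the log2 scale (adjusted p = 0.0125), and -0.07 ± 0.052 with class (adjusted p = 0.966).

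Rpl41, a very short protein at the interface of the subunits, had 218, 205, 217, 187 and 204 CPM in vehicle and 138, 138, 155, 174 and 146 CPM in raloxifene. Its groups did not overlap either, and its log2 fold change was -0.46 ± 0.11 (adjusted p = 0.0115) as designed and -0.12 ± 0.067 with class. Rps3 and Rps2 line the channel through which mRNA enters the small subunit. In log2 terms Rps3 had a fall of -0.32 ± 0.081 (adjusted p = 0.0128) and Rps2 fell by 0.45 ± 0.12 (adjusted p = 0.0134). The fall of Rps2 was smaller with the entry of its copy added, as given below. Rps28, of the mRNA exit site, fell by 0.50 ± 0.13 (adjusted p = 0.0137). With class these 3 had log2 fold changes of -0.15, -0.11 and -0.07, and none passed. Rplp0, the base of the stalk that binds elongation factors, fell by 0.19 ± 0.070 (adjusted p = 0.0427), while its partner Rplp1 had -0.10 ± 0.061 (adjusted p = 0.2). Rpsa, which also serves as a laminin receptor, fell by 0.24 ± 0.080 (adjusted p = 0.0329). With class Rplp0 and Rpsa had 0.00 and -0.04.

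Of the members that rose in raloxifene, Rpl22l1 is a paralogue of Rpl22. It had 14.9, 17.9, 16.6, 19.8 and 16.8 CPM in vehicle and 24.8, 20.2, 23.9, 30.8 and 31.1 CPM in raloxifene, so that the groups did not overlap. The log2 fold change was 0.60 ± 0.22 (adjusted p = 0.0416) as designed and turned to -0.06 ± 0.15 with class. Rpl22 itself had 0.08 ± 0.078 (adjusted p = 0.46).

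Rps24, a small-subunit protein mutated in some families with Diamond-Blackfan anaemia, had 77.8, 76.1, 83.2, 103 and 81.6 CPM in vehicle and 103, 107, 105, 111 and 109 CPM in raloxifene. The highest vehicle value again came from vehicle 4. The log2 fold change was 0.35 ± 0.11 (adjusted p = 0.0205), and 0.02 ± 0.061 with class. Rps27, a zinc-finger protein of the small subunit, had 54.3, 53.9, 51.5, 56.7 and 52.2 CPM in vehicle and 57.6, 61.5, 59.2, 66.5 and 60.6 CPM in raloxifene. Its groups did not overlap, and its fold change was 0.18 ± 0.062 on the log2 scale (adjusted p = 0.0307) and 0.14 ± 0.068 with class (adjusted p = 0.937). Rps10l1, a gene like the small-subunit gene Rps10, also moved little between the fits. It had -0.38 ± 0.12 (adjusted p = 0.0228) as designed and -0.35 ± 0.14 with class (adjusted p = 0.821). Rps10l1 and Rps10 are both members, and their entries were not summed. Whether reads of one were counted under the other was not tested. All 5 raloxifene libraries were below all vehicle libraries in 16 of 76 members, where 7.02% of all genes were, and above them in 3, where 11% were.

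**Figure D2:**
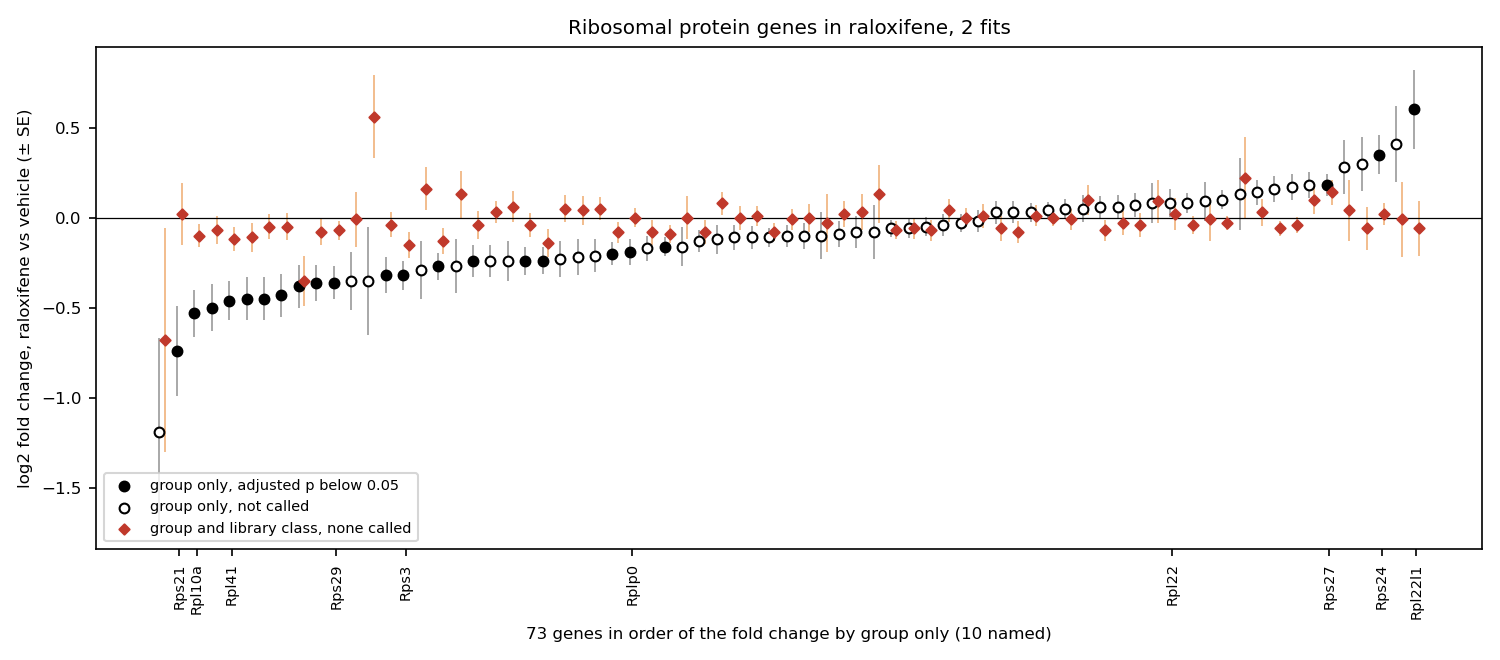
Log2 fold change ± SE of raloxifene against vehicle for 73 ribosomal protein genes, in order of the fit with groups alone, 10 of them named (circles, filled where adjusted p is below 0.05); red diamonds are the same genes with library class in the model. Rpl9, Rpl30 and Rps20, which have an abundant entry named as a copy, are left out. Other members with a copy entry above 10 CPM, among them Rps2 and Rps4x, are kept. Rpl10a moves from -0.53 to -0.10 and Rpl22l1 from 0.60 to -0.06 between the fits.

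The count of called members in raloxifene depended on single libraries. It was 12 without raloxifene 5, vehicle 1 or vehicle 3, where 12.3%, 12.4% and 12% of all genes passed. Without vehicle 2 it was 14, where 14.2% of all genes passed, and without vehicle 4 it was 28, where 31% did. The share over all genes thus moved with that of the members.

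In exemestane 9 of 76 members passed as designed, all of them lower, where 6.51% of all genes passed, 4.06% as higher and 2.45% as lower. The median log2 fold change of the members was -0.14, against -0.01 for all genes. Rps29 had 123, 122, 124, 124 and 151 CPM in exemestane, and exemestane 5, the only class A library of the group, was the one that reached the vehicle range. Its log2 fold change was -0.36 ± 0.090 (adjusted p = 0.0394). Rps15, a protein of the small-subunit head near the decoding site, had 84.8, 86.5, 87, 88.2 and 114 CPM against 138, 136, 128, 103 and 117 CPM in vehicle, a change of -0.43 ± 0.12 (adjusted p = 0.045). Here too exemestane 5 stood above the others. Rps12, of the beak of the small subunit, had 80.4, 96.9, 86.3, 81.9 and 96.4 CPM against 101, 108, 101, 103 and 110 CPM in vehicle. Its groups did not overlap, exemestane 5 did not stand apart, and its log2 fold change was -0.24 ± 0.068 (adjusted p = 0.0448). Rpl10a, Rpl27a, Rpl28, Rpl18, Rpl41 and Rps13 were the others that fell, by 0.26 to 0.43 on the log2 scale. Rplp0, Rpsa and Rplp1 had -0.18, -0.21 and -0.13 with adjusted p values of 0.0794, 0.0804 and 0.147. All 5 exemestane libraries were below all vehicle libraries in 4 members, where 1.46% of all genes were.

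With class in the model none of the members passed in exemestane, where 0% of all genes did. Rps29 then had -0.15 ± 0.049, Rps12 -0.17 ± 0.065 and Rps15 -0.15 ± 0.069, and the median of the members was -0.06. As designed the count was 26 without exemestane 5, where 28.7% of all genes passed, and 18 without vehicle 4, where 19.5% did; these libraries differ in class from the rest of their group. Without any other library of either group it was 0, where 0% of all genes passed. DESeq2 called 17, all lower, where it called 18% of all genes.

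Estradiol had few or no called members, depending on the fit. As designed 0 of 76 passed, where 0.00694% of all genes passed. DESeq2 also called 0, and 0.185% of all genes. In the fit that holds class as well, 2 members passed, both lower, where 0.298% of all genes passed and 0.0763% passed as lower. Rpl29, a large-subunit protein also known for binding heparin, had 103, 101, 112, 105 and 101 CPM in estradiol and 113, 126, 125, 141 and 119 CPM in vehicle. Every estradiol library was below every vehicle library. Its log2 fold change was -0.25 ± 0.063 (adjusted p = 0.239) as designed and -0.22 ± 0.051 (adjusted p = 0.0474) with class.

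Rps3a, a protein beside the mRNA exit of the small subunit, had 145, 143, 142, 141 and 142 CPM in estradiol and 157, 160, 161, 194 and 155 CPM in vehicle. The groups did not overlap, and the class B library vehicle 4 was the highest. Its log2 fold change was -0.21 ± 0.073 (adjusted p = 0.384) as designed and -0.15 ± 0.036 (adjusted p = 0.0487) with class. Both calls lay close to the threshold. Among class A libraries alone Rpl29 had -0.20 (adjusted p = 0.179) and Rps3a -0.15 (adjusted p = 0.16), and in the fit with class, with 1 library of either group left out at a time, Rpl29 passed in 1 of 10 fits and Rps3a in none. Rpl7, a large-subunit protein, had -0.14 ± 0.038 with class (adjusted p = 0.126). All estradiol libraries were below all vehicle libraries in 3 members, Rpl29, Rps3a and Rps23, where 1.85% of all genes were.

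Sham-operated animals, which kept their ovaries, showed no called member: 0 of 76 passed as designed, where 0% of all genes did. DESeq2 called 0 members and 0.0864% of all genes. Rpl29 had 97.2, 113, 106, 115 and 122 CPM in SHAM, overlapping vehicle, and a log2 fold change of -0.17 ± 0.062 (adjusted p = 0.55). Rpl3, which shapes the peptidyl transferase centre, had 208, 222, 208, 228 and 217 CPM against 251, 228, 241, 242 and 232 CPM in vehicle, a change of -0.14 ± 0.050 (adjusted p = 0.537). The groups of Rpl3 touch at 228 CPM. Rpl36al, the paralogue of Rpl36a, had -0.20 ± 0.073 (adjusted p = 0.56). The median of the members was -0.07 as designed, with 58 of 76 negative, and -0.09 with class, with 66 negative; over all genes the medians were 0.00 in both fits. The members' medians against vehicle lay below 0 in all 6 comparisons, and these share the same 5 vehicle libraries. All SHAM libraries were below all vehicle libraries in Rps3a and Rps23, 2 of 76, where 0.749% of all genes were.

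Tamoxifen and anastrozole had no called member as designed, where 0% of all genes were called in either. DESeq2 called 0 members in both, and 0.668% and 0.00664% of all genes. In tamoxifen the smallest p values belonged to Rps10l1, Rpl12 and Rps3. Rps10l1 had -0.35 ± 0.12 (adjusted p = 0.198), and here too its entry was not summed with that of Rps10. Rpl12, which helps form the base of the stalk, had -0.46 ± 0.16 (adjusted p = 0.208). The change of Rps3 was -0.19 ± 0.082 (adjusted p = 0.248). Rps3 had 141 and 141 CPM in the class A libraries of tamoxifen and 96.6, 110 and 109 CPM in its class B libraries, and among class A libraries alone its change against vehicle was 0.06. Without tamoxifen 2, 1 member passed, where 4.01% of all genes did. In anastrozole Rps3 had -0.15 and Rps13, a small-subunit protein, had -0.13, and both had an adjusted p of 1. The libraries of tamoxifen were all below vehicle in 2 members, where 0.798% of all genes were, and those of anastrozole in 1, where 0.472% were.

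Across all 7 groups tested together, 31 of 76 members differed as designed, where 37% of all genes did. Rps27 (adjusted p = 0.000871), Rps24 (0.000964), Rps3a (0.00097) and Rps29 (0.00133) had the smallest values. With class none passed, where 0.0278% of all genes did.

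**Figure D3:**
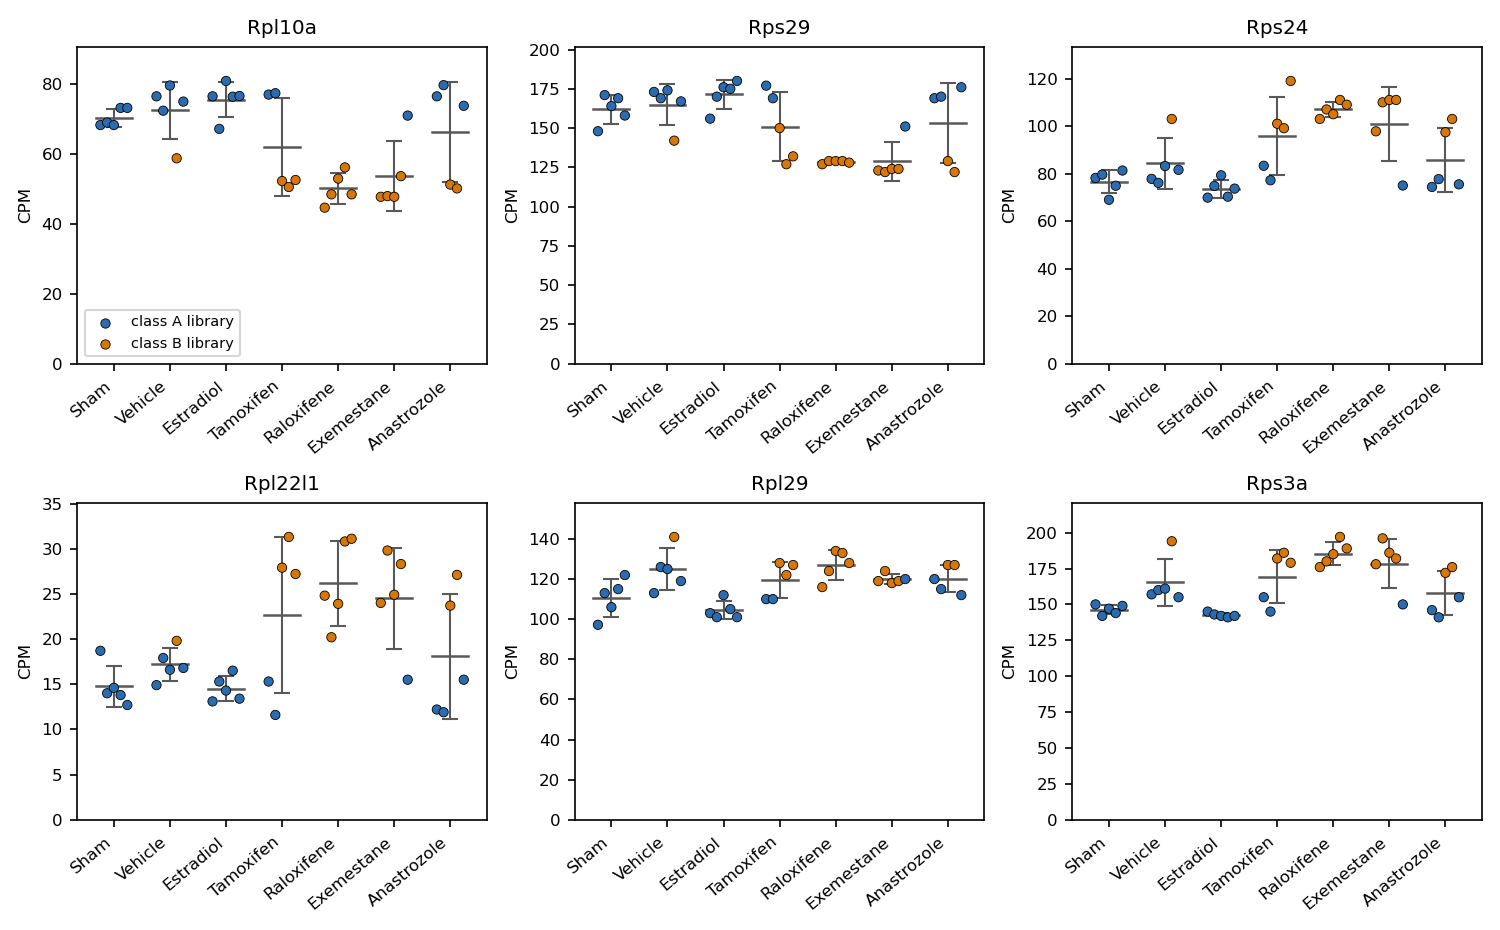
CPM of Rpl10a, Rps29, Rps24, Rpl22l1, Rpl29 and Rps3a in each library by group, with blue class A and orange class B libraries and group mean ± SD (n = 5). Within tamoxifen, exemestane and anastrozole the points part by class for Rpl10a and Rps24, and the 5 estradiol points of Rpl29 and Rps3a lie below all vehicle points.

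The class term itself was called for 51 of 76 members, 15 higher and 36 lower in class B, where 51.9% of all genes were called (25.5% higher and 26.3% lower). The share of members called was above that of all genes, and those lower in class B outnumbered those higher. The median log2 difference of the members was -0.12, against -0.01 for all genes. In each of the 4 groups that hold both classes the mean log2 CPM of the members was lower in class B, with differences of -0.10 in vehicle, -0.15 in tamoxifen, -0.09 in exemestane and -0.17 in anastrozole. In vehicle class B is 1 library and in exemestane class A is 1 library, so these 2 differences have no replicate check on that side. Without Rpl9, Rpl30, Rps20 and Rps4x, described below with their copies, the differences were -0.05, -0.19, -0.07 and -0.15, a choice made after the data were seen. By share of counts vehicle 4, at 0.722%, did not lie below the other vehicle libraries, which had 0.7% to 0.735%. The members lower in class B in those groups numbered 37, 55, 43 and 52 of 76, where 50.1%, 52.6%, 50.4% and 50.5% of all genes were lower.

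Rpl10a ran from 67.1 to 80.8 CPM in the 20 class A libraries, with a median of 75.6, and from 44.6 to 58.7 CPM in the 15 of class B, with a median of 50.5. Its class difference was -0.53 ± 0.043 (adjusted p = 2.62e-12). Rps28 had -0.52 ± 0.052 and Rps29 -0.35 ± 0.035. Leaving aside Rpl9 and Rpl30, which are described below with their copies, the largest differences below 0 were in Rpl37, at -1.07 ± 0.15 from a mean of 6.17 to 3.17 CPM, and Rps21, at -0.90 ± 0.11 from 15.2 to 8.11 CPM. Both encode short proteins, of the large and the small subunit.

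Members higher in class B were led by Rpl22l1, with 11.6 to 18.7 CPM in class A and 19.8 to 31.3 CPM in class B, a difference of 0.82 ± 0.10 (adjusted p = 1.67e-08). Rps24 had 69 to 83.3 and 97.4 to 119 CPM, a difference of 0.42 ± 0.041, Rps3a had 0.28 ± 0.028 and Rpl7 0.26 ± 0.029. Rpl22l1 and Rps27l are both paralogues of another member. Rps27l had 0.52 ± 0.15 (adjusted p = 0.00306) where Rps27 had 0.06 ± 0.046 (adjusted p = 0.297), and Rpl22 had 0.07 ± 0.060 (adjusted p = 0.339). Whether a paralogue differed from its partner was not tested. The classes did not overlap in 14 of 76 members, 5 higher and 9 lower in class B, where 6.61% and 3.8% of all genes did not.

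Rpl5 and Rpl11, which hold the small ribosomal RNA of the large subunit and bind the p53 regulator Mdm2, differed little. Rpl5 had 0.08 ± 0.038 between classes (adjusted p = 0.0906) and Rpl11 had 0.11 ± 0.045 (adjusted p = 0.0377). Against vehicle both stayed between -0.12 and 0.06 in the 6 comparisons as designed, and neither passed in any. Rpl10 and Rpl39 had no call against vehicle as designed and were higher in class B, by 0.15 ± 0.033 and 0.29 ± 0.11. Rpl10l, a testis-enriched paralogue of Rpl10, had 0.217 to 2.62 CPM and no call in any comparison. Rps19bp1 and Rpl7l1 match the rule by name and are not ribosomal proteins; neither was called against vehicle, and Rps19bp1 was lower in class B by 0.27 ± 0.11 (adjusted p = 0.0373).

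The authors' factors differed between the classes for the members too. The class difference in the factor was centred on all genes, so that 50% of all genes lie below 0 by construction. On this scale 49 of the 74 members with a factor in every library (66.2%) lay below 0 in class B. The median of the 74 was -0.0797 and their range was -0.325 to 0.195 on the log2 scale. Across these 74 members the class difference in counts and that in the factor had a Pearson r of 0.53 and a Spearman rho of 0.62, a description across genes measured in the same libraries. Over all genes the values were 0.80 and 0.83. Of the 51 called members 41 had both differences of the same sign and 9 of opposite sign. Among the 9 were Rpl28 and Rpl27a, which fell while their centred factor lay above 0. With the factors entered as offsets, 35 members were called between classes, 13 higher and 22 lower, where 27.2% of all genes were called, and their median was -0.04. Of the 36 lower members, 21 were lower in both fits and 15 were not called with the factors; of the 15 higher, 12 were higher in both. Rpl10a then had -0.34 ± 0.040, Rps24 0.27 ± 0.040 and Rpl22l1 0.69 ± 0.094, while Rps15 went from -0.47 to -0.15 and Rpl18 from -0.24 to -0.01.

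**Figure D4:**
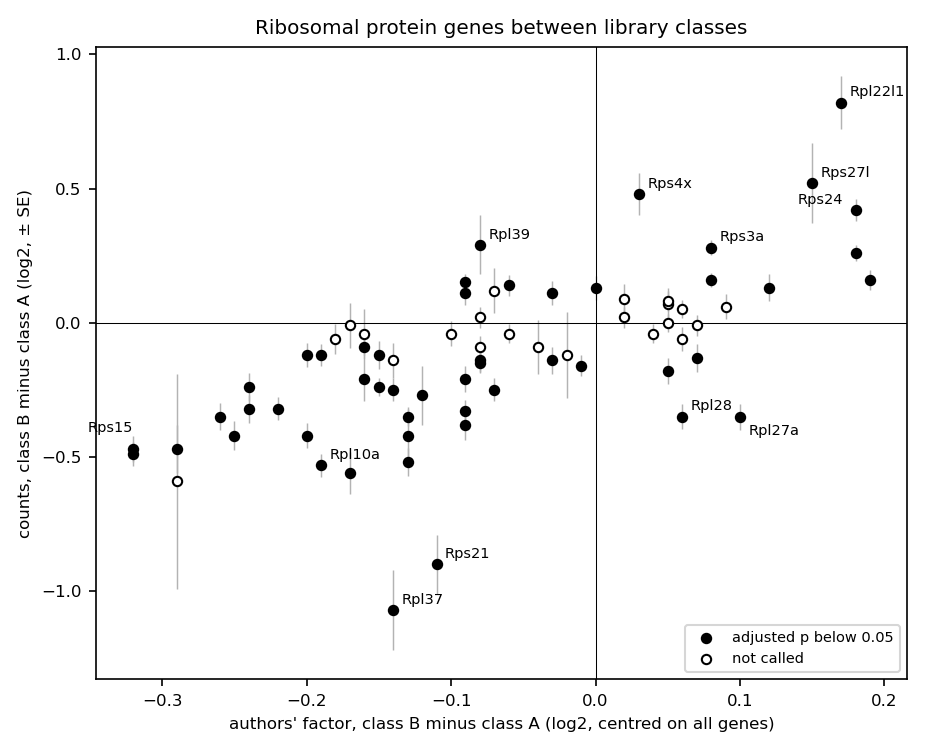
Class difference in counts (vertical, log2 ± SE, class B minus class A) against the class difference in the authors' factor (horizontal, log2, centred on all genes) for 73 ribosomal protein genes, filled where the counts differed at an adjusted p below 0.05. Rpl9, Rpl30 and Rps20 are left out; Rps15 lies at the lower left and Rps24 and Rpl22l1 at the upper right.

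The table also lists entries that RefSeq names as pseudogenes or further copies of members. Such entries were found by symbol for 17 members, and 7 of the 17 averaged above 10 CPM. Entries that are members themselves, such as Rps10l1 beside Rps10, were not searched as copies. No sequences were compared, so whether reads of a member were counted under its copy was not tested. Values with the copy added are given below for Rpl9, Rps20, Rpl30, Rps4x and Rps2. The class difference of Rpl6 went from -0.14 (adjusted p = 0.00851) to -0.09 (adjusted p = 0.0547) with its copy added. That of Rps25 went from 0.13 (adjusted p = 0.0295) to 0.17 (adjusted p = 0.0451). Rpl31, Rpl23a and Rps12 also lost their class call with their copies, which averaged below 10 CPM. Rpl9, Rpl30 and Rps20 were called between classes only with their copies added. Rpl9 had 116, 83.2, 107, 29 and 138 CPM in vehicle, 115, 98.7, 4.9, 123 and 34.7 in SHAM and 59.1, 97, 128, 5.97 and 37.4 in raloxifene. The entry LOC100364457, which RefSeq names Rpl9-ps30, ran from 0 to 187 CPM. The sum of the 2 ran from 115 to 193 CPM, and the coefficient of variation over all 35 libraries fell from 58.2% for Rpl9 to 17.7% for the sum. The sum had 115 to 139 CPM in class A and 158 to 193 CPM in class B, without overlap, and a class difference of 0.44 ± 0.037 (adjusted p = 5.14e-12), where Rpl9 alone had -1.08 ± 0.60 (adjusted p = 0.14). Against vehicle the sum rose in raloxifene by 0.36 ± 0.11 (adjusted p = 0.0188), and with class it had an adjusted p of 0.996.

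Rps20 was at 0 in 21 of 35 libraries and Rpl30 in 10, although both are required in every ribosome. With LOC100359951 (Rps20-ps12) the Rps20 sum was 59.8 to 73.5 CPM in class A and 45.2 to 56.6 CPM in class B, and it differed by -0.38 ± 0.043 (adjusted p = 2.92e-09). With LOC100362027 (Rpl30l2) the Rpl30 sum was 67.4 to 79.9 CPM and 74.9 to 100 CPM and differed by 0.15 ± 0.043 (adjusted p = 0.00425). The Rps20 sum fell by 0.34 ± 0.10 (adjusted p = 0.0187) and the Rpl30 sum rose by 0.19 ± 0.066 (adjusted p = 0.0365) in raloxifene. Rps4x, the X-linked small-subunit gene, had a class difference of 0.48 ± 0.079 alone and of 0.11 ± 0.039 (adjusted p = 0.0147) with Rps4x-ps9, and its coefficient of variation went from 21.9% to 6.44%. With LOC108350502 (Rps2-ps43) the Rps2 sum fell in raloxifene by 0.27 ± 0.088 (adjusted p = 0.0273). The groups of this sum overlapped, with raloxifene 4 at 167 CPM and vehicle 4 at 161 CPM. The class difference of Rps2 was -0.42 alone and -0.29 ± 0.046 for the sum. With all copies added to their members, 23 members passed in raloxifene, 6 higher and 17 lower, 8 in exemestane and 48 between classes, where 24.2%, 6.81% and 51.8% of all genes passed.

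**Figure D5:**
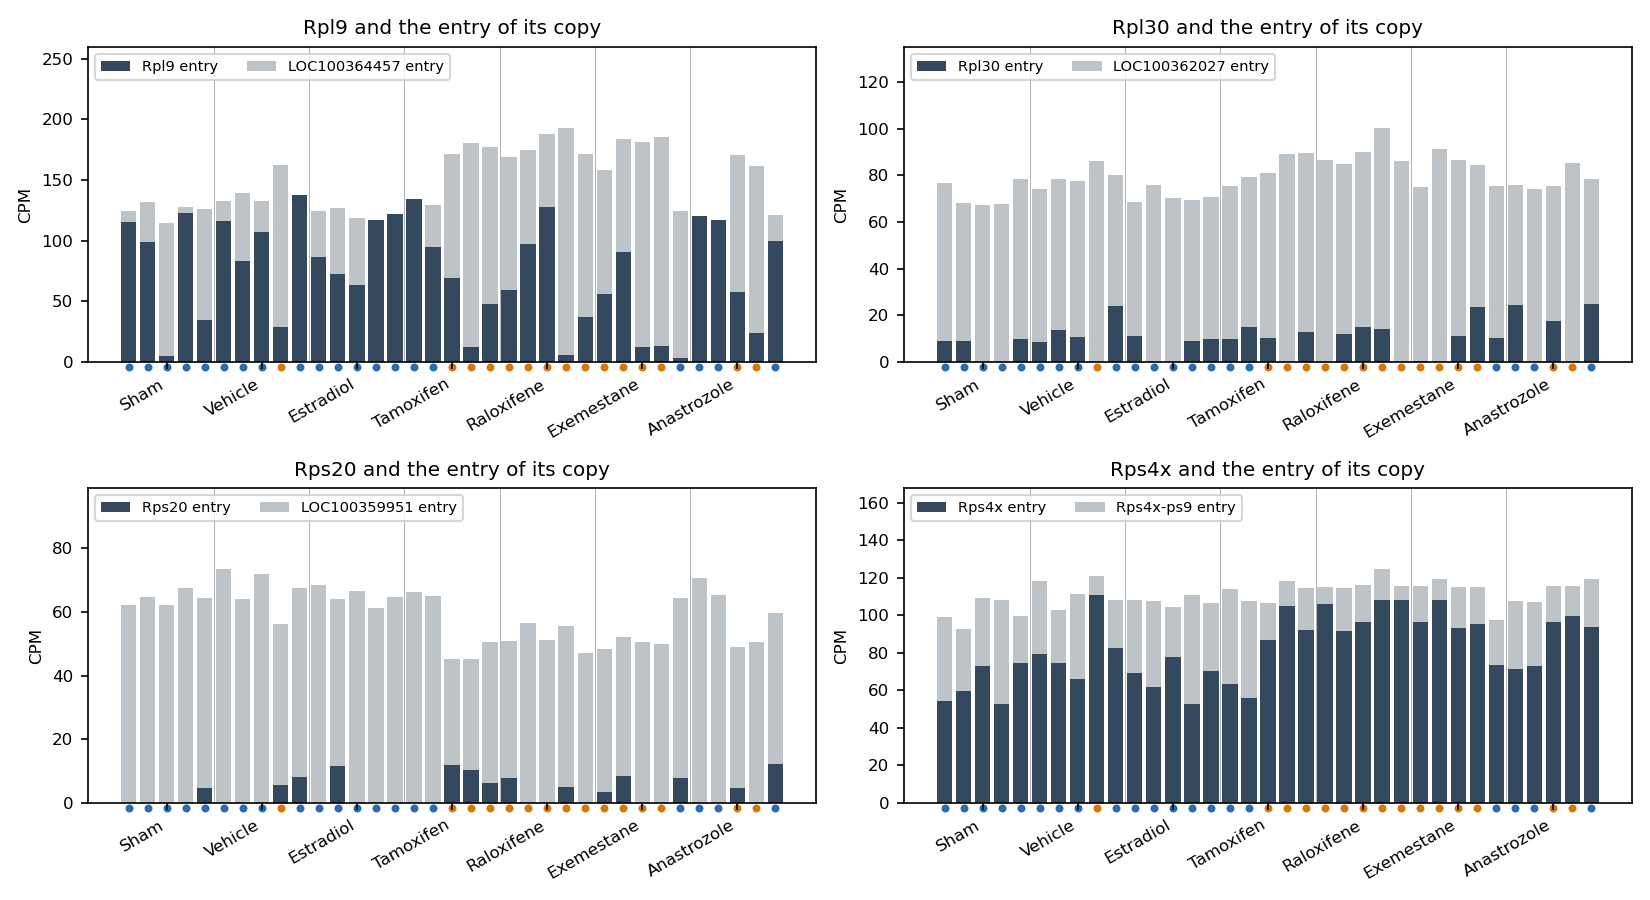
CPM of Rpl9, Rpl30, Rps20 and Rps4x (dark) and of the entry RefSeq names as its copy (light), stacked for each of the 35 libraries in group order; dots under the bars are blue for class A and orange for class B. The sums for Rpl9 run from 115 to 193 CPM, while the Rpl9 entry alone runs from 3.45 to 138 CPM.

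Members with and without the pyrimidine run at the start are given side by side. In raloxifene the median was -0.11 for the 22 with the run and -0.12 for the 36 tested ones without it, with 7 and 12 called, 1 and 2 of them higher, where 24.8% of all genes were called. Between classes it was -0.14 and -0.12. No difference between these sets was tested.

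Other genes of the pathway moved in both directions in raloxifene as designed, where 13.4% of all genes rose and 11.4% fell. Of the ribosomal proteins outside the naming rule, Fau, which encodes a ubiquitin-like protein fused to a small-subunit protein, fell by 0.29 ± 0.094 (adjusted p = 0.0257), and the scaffold protein Rack1 fell by 0.21 ± 0.068 (adjusted p = 0.0235). Of 21 other genes known for TOP mRNAs 7 rose and 4 fell, among them the elongation factor Eef2, by 0.35 ± 0.083, and the helicase Eif4a2, which rose by 0.51 ± 0.13. In the 16 promoters searched for this list the pyrimidine run was at the annotated start in 0 and within 10 bases of it in 10 (62.5%). Of 32 ribosome biogenesis genes 3 rose and 6 fell; the nucleolar proteins Ncl and Nop58 had 0.35 ± 0.090 and 0.39 ± 0.10. Of 21 genes of mTORC1 and S6 kinase signalling 5 rose and 7 fell, and the S6 kinase gene Rps6ka6 rose by 0.97 ± 0.22 (adjusted p = 0.0111). In exemestane 2 of 21, 2 of 32 and 3 of 21 of the last 3 lists passed, where 6.51% of all genes did, and in SHAM, estradiol, tamoxifen and anastrozole none did. With class none of these lists had a called gene in raloxifene or exemestane.

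Markers of other tissue and cell types were summed in each library. The 8 choroid plexus markers found summed to 4.67 to 3250 CPM in class A and 4.7 to 3330 CPM in class B, and with their score as a covariate 25 members passed in raloxifene and 50 between classes, where 28.2% and 52.5% of all genes did. The 6 microglial markers summed to 135 to 200 and 128 to 155 CPM, and the 6 markers of hippocampal neurons to 2110 to 4400 CPM with a median of 4130 in class A and to 3070 to 3610 CPM with a median of 3390 in class B; their part in the members' differences was not tested. Thalamic markers summed to 70.3 to 282 CPM with a median of 79.1 in class A, the highest in a SHAM library, and to 81.8 to 104 CPM with a median of 91.4 in class B; their part was not tested either. Slc17a7, the vesicular glutamate transporter of hippocampal pyramidal and granule cells, was at 724 CPM or more in every library.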

How the data were processed

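Poly(A)-selected, stranded RNA of 35 hippocampus samples was sequenced as 100 bp paired ends with a target of 30 M reads, per the labels' protocols. The authors deposited estimated counts per gene, whole numbers, with Salmon named in the submitters' processing notes, and a normalized table. The deposited normalized values (a signal scale) equal the counts divided by a factor for each gene and library; DESeq2 is named in the submitters' processing notes. Versions, annotation and genome build are not given in the sources used here. The 35 libraries held 5.58 M to 12.1 M counts, which sets the precision of low members. Groups were taken from the labels. The labels do not say that replicates are separate animals, so p-values measure the spread between these samples, which may be technical; replicate pairs differed by more than sampling noise.

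The counts were scaled by TMM, filtered by group (14411 of 15059 genes kept) and compared with vehicle by edgeR 4.0.16's robust quasi-likelihood test (R 4.3.3, limma 3.58.1), adjusted by Benjamini-Hochberg over all tested genes at 0.05, with all 7 groups in 1 fit. CPM are TMM-scaled; a prior count of 2 was used for log2 CPM. SE is the size of the log2 fold change over the square root of F. Library class, from the authors' factors without the members, was defined after the data were seen. Alternatives were class in the model, the authors' factors as offsets, other scaling, no filter, DESeq2 1.42.0, a choroid plexus covariate, fewer libraries, added copies and leaving out each library. The scripts were tested on simulated data.

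Members and lists were chosen with earlier results of these data known. Named were, per comparison, up to 6 called members in each direction with the smallest p (3 where none was called; 4 for any difference, and 4 per direction for class), the stalk proteins, Rpsa, Rpl5, Rpl11, paralogue pairs, members the filter removed and misnamed ones; Rpl37, Rps21, Rpl18, Rpl27a and Rpl28 in the class results and the members with copies were chosen after their values were seen; the part of that rule that ranks levels per coding length could not be applied, as no lengths were used here. Start windows are from RefSeq, build GRCr8; 18 members had no single promoter entry. Some genes that the naming rule would name are not reported here.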

Additional observations from a re-analysis of the deposited data

Results flagged for a closer look

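In 16 of 189 sets of 5 libraries (27 values in each of 7 groups) the highest or lowest library stood apart from the other 4 by more than 0.71 of the range (Dixon's test), where chance gives about 1 in 20. The sets share libraries and hold genes picked by their results, so that rate is only a rough guide. Exemestane 5, the only class A library of its group, had 70.9 CPM of Rpl10a where the others had 47.7 to 53.6, 151 CPM of Rps29 (others 122 to 124), 203 CPM of Rpl41 (146 to 151), 114 CPM of Rps15 (84.8 to 88.2), 143 CPM of Rpl7 (173 to 183), 169 CPM of Rpsa (143 to 149) and 2.46 CPM of Rps27l (5.57 to 6.16). Vehicle 4, the only class B library of its group, had 142 CPM of Rps29 (others 167 to 174), 103 CPM of Rps24 (76.1 to 83.2), 194 CPM of Rps3a (155 to 161) and 186 CPM of Rpl7 (144 to 153). Each of these 11 values lay on the side of the other class. Their genes all differed between the classes and several were named for that, so this follows from the choice and adds no evidence. The remaining 5 were 113 CPM of Rps12 in anastrozole 5 (94.8 to 98.5), 186 CPM of Rpl7 in raloxifene 4 (170 to 174), 251 CPM of Rplp1 in estradiol 5 (206 to 216), and Rps20 at 4.65 CPM in SHAM 5 and 11.7 CPM in estradiol 2, where the other 4 libraries of each group were at 0. With 4 libraries at 0, any count in the other library is flagged.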

How the results depend on the processing

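In raloxifene 22 members passed as designed, 0 with class in the model, 10 with the authors' factors as offsets (6.41% of all genes) and 0 with both (0%). In exemestane 9 passed as designed, 0 with class, 2 with the factors (0.93% of all genes), 0 with both (0%), 0 with only the libraries compared (0%) and 17 by DESeq2 (18%). Among class A libraries 0 passed, but exemestane has 1 such library, assumed to vary like the other groups, so that count says nothing on stability. In estradiol 0 passed as designed and 2 with class, and over all groups 31 passed as designed, 0 with class and 0 with class and factors. The cause of these differences was not tested. Raloxifene has no class A library, so it has no value among those. Median-ratio scaling, no filter, the plexus covariate and added copies kept each of these 4 counts within 1.5 times. Directions turned for Rps3 in tamoxifen (0.06) among class A libraries, for Rpl28 in exemestane (0.02) in the 1 class A library of that group, for Rpl22l1 in raloxifene with class (-0.06) and with class and factors (-0.1), and for Rps24 in raloxifene with both (-0.02). Leaving out 1 library at a time gave 12 to 28 called members in raloxifene, 0 to 26 in exemestane, 0 to 1 in tamoxifen, 22 to 39 over all groups and 41 to 51 between classes. Over all groups 24 passed without estradiol 5, where 32.5% of all genes did, and 34 without anastrozole 4, where 40.1% did. Between classes 51.9% of all genes passed with every library kept, and the shares without 1 library are not given here. With class it gave 0 to 1 in estradiol and 0 to 0 in raloxifene, exemestane and over all groups. With class and 1 library left out, the raloxifene change of Rpl22l1 ran from -0.29 to 0.02 (-0.03, -0.02, -0.11 and -0.12 without raloxifene 1, 3, 4 and 5, and -0.07, 0, -0.03, -0.29 and -0.02 without vehicle 1 to 5) and that of Rps28 from -0.11 to 0. No paired analysis was possible because the labels give the groups no shared replicate numbers. Depth limits the members below 10 CPM, whose library counts are low.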
